A study of Brassica rapa subsp. pekinensis with 6 samples.

Results

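The DREB and CBF transcription factors of Chinese cabbage were represented by 22 mRNAs, out of 33354 mRNAs of the reference annotation and 57931 linear transcripts in all. They were taken by a rule on annotation, as reference transcripts whose description names a dehydration-responsive element-binding protein, a C-repeat factor or DREB. The rule itself uses no measured value. Of the 22, 5 were annotated as DREB1/CBF factors (2 DREB1B, 1 DREB1C, 1 DREB1D and 1 DREB1F), 15 as DREB2 factors (3 each of DREB2A, DREB2B, DREB2D and DREB2G, 2 of DREB2F and 1 of DREB2E) and 2 as DREB3. Most of these annotations carry the suffix "-like", which is left out below.

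RNA came from germinated seeds of the double haploid line 'FT' of Brassica rapa subsp. pekinensis, in 3 vernalized (Ver) and 3 non-vernalized (Nor) libraries. The Ver seeds spent 25 days at 4 °C in the dark after germination, and the Nor seeds spent about 48 h at room temperature in the dark. All seeds had germinated at room temperature on wet filter paper in dishes, and the paper counts 1 dish as a biological repeat. The seeds were divided into the groups after germination, and whether a library held a whole dish is not stated. Both groups were taken at the same length. The Ver seeds were therefore older as well as colder, so that age and temperature cannot be told apart. Whole germinated seeds were extracted, and more cells of a type cannot be told apart from more RNA per cell.

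DREB and CBF proteins belong to the AP2/ERF family of plant transcription factors and bind the CRT/DRE promoter element, whose core is CCGAC. In Arabidopsis, the DREB1/CBF genes are switched on within minutes to hours of cold and activate COR genes, whose products protect cells against freezing, whereas the DREB2 genes are known mainly from drought, salt and heat. CBF activity is part of cold acclimation, and vernalization, the slow promotion of flowering by long cold, is described in Arabidopsis as a separate response.

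The estimated counts totalled 95919873 to 97291567 per Ver library and 83976912 to 104903263 per Nor library. The 22 mRNAs held 4421 to 4525 of these counts in the Ver libraries and 955 to 1234 in the Nor libraries. The label of the tissue, seeds, was checked with 32 mRNAs of seed storage and oil body proteins (cruciferins, napins and oleosins), which are the protein and lipid reserves of Brassica seeds. Their summed level was 1438 to 1475 FPKM in Ver and 40.5 to 44.5 FPKM in Nor, where FPKM is the authors' level per transcript length and library size. Of the 32, 0 were listed at 0 in every Ver library and 2 in every Nor library. Of the 27 that could be tested, 20 rose and 1 fell in Ver by the rule given below. These reserve mRNAs moved with the groups in each comparison that follows, and their part in the results was not tested.

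The DREB and CBF mRNAs were mostly low. Their median level over the 6 libraries was 0.555 FPKM, against 1.02 FPKM for all reference mRNAs, and 7 of the 22 averaged at least 1 FPKM in Ver and 5 in Nor. Summed over the 22, the level was 49.0, 48.1 and 47.7 FPKM in Ver 1, Ver 2 and Ver 3, against 11.3, 10.5 and 10.5 FPKM in Nor 1, Nor 2 and Nor 3. The groups were far apart, and a single mRNA, DREB1C, accounted for most of the distance. It made up 61.9% to 63.3% of the summed level in Ver and 8.18% to 10.7% in Nor. The other 21 mRNAs summed to 17.5 to 18.7 FPKM in Ver and 9.39 to 10.2 FPKM in Nor. By subgroup, the DREB1/CBF mRNAs summed to 31.1 to 31.4 FPKM in Ver and 1.29 to 1.56 FPKM in Nor. The 15 DREB2 mRNAs summed to 15.8 to 16.9 FPKM in Ver and 6.91 to 7.85 FPKM in Nor. The 2 DREB3 mRNAs went the other way, with 0.443 to 0.821 FPKM in Ver and 1.87 to 2.32 FPKM in Nor.

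**Figure D1:**
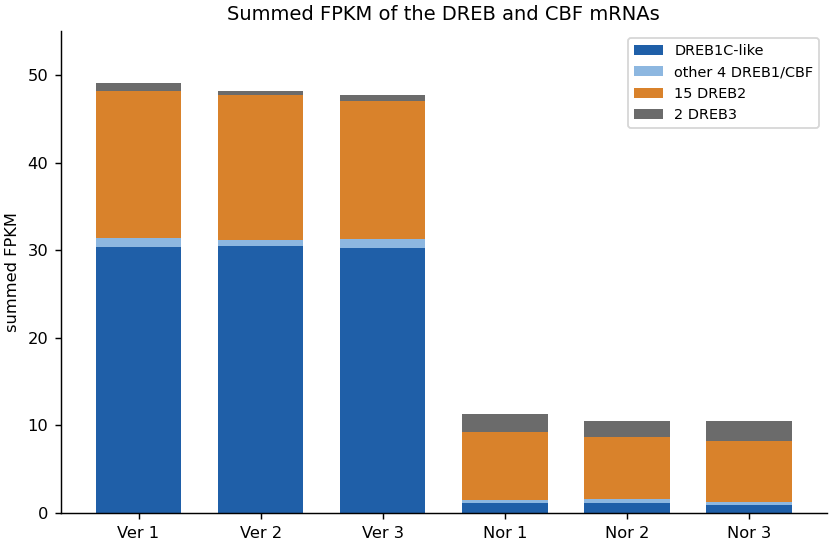
Summed FPKM of the 22 DREB and CBF mRNAs in each library, the 3 Ver libraries at the left and the 3 Nor libraries at the right, with stacked parts for DREB1C, the other 4 DREB1/CBF, the 15 DREB2 and the 2 DREB3 mRNAs. The Ver bars reach 47.7 to 49.0 FPKM and the Nor bars 10.5 to 11.3 FPKM, and DREB1C is the tallest part of each Ver bar.

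To ask which members differed, the estimated counts were tested with the quasi-likelihood test of edgeR, with p-values adjusted (Benjamini-Hochberg) over the 49351 linear transcripts that passed the count filter. An mRNA is said to have risen or fallen in Ver when its log2 fold change of Ver over Nor was above 1 in size and its adjusted p was at most 0.05. Of the 22 mRNAs, 19 passed the count filter, and of these 7 rose, 2 fell and 10 did not pass the test. Among all 26531 reference mRNAs tested, 6.75% rose and 7.7% fell, and among the 15962 with a mean of 10 to 500 counts, the range in which most members lie, 7.29% rose and 8.09% fell. The median log2 fold change of the 19 was 0.96, against -0.01 over all reference mRNAs tested, and 14 of the 19 fold changes were above 0. The 3 Ver libraries lay above all 3 Nor libraries for 12 members and below them for 2, where 25.5% and 27.2% of all tested reference mRNAs did so. The 3 members that failed the filter, 1 each of DREB1B, DREB1F and DREB2A, had at most 14 counts in any library.

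**Figure D2:**
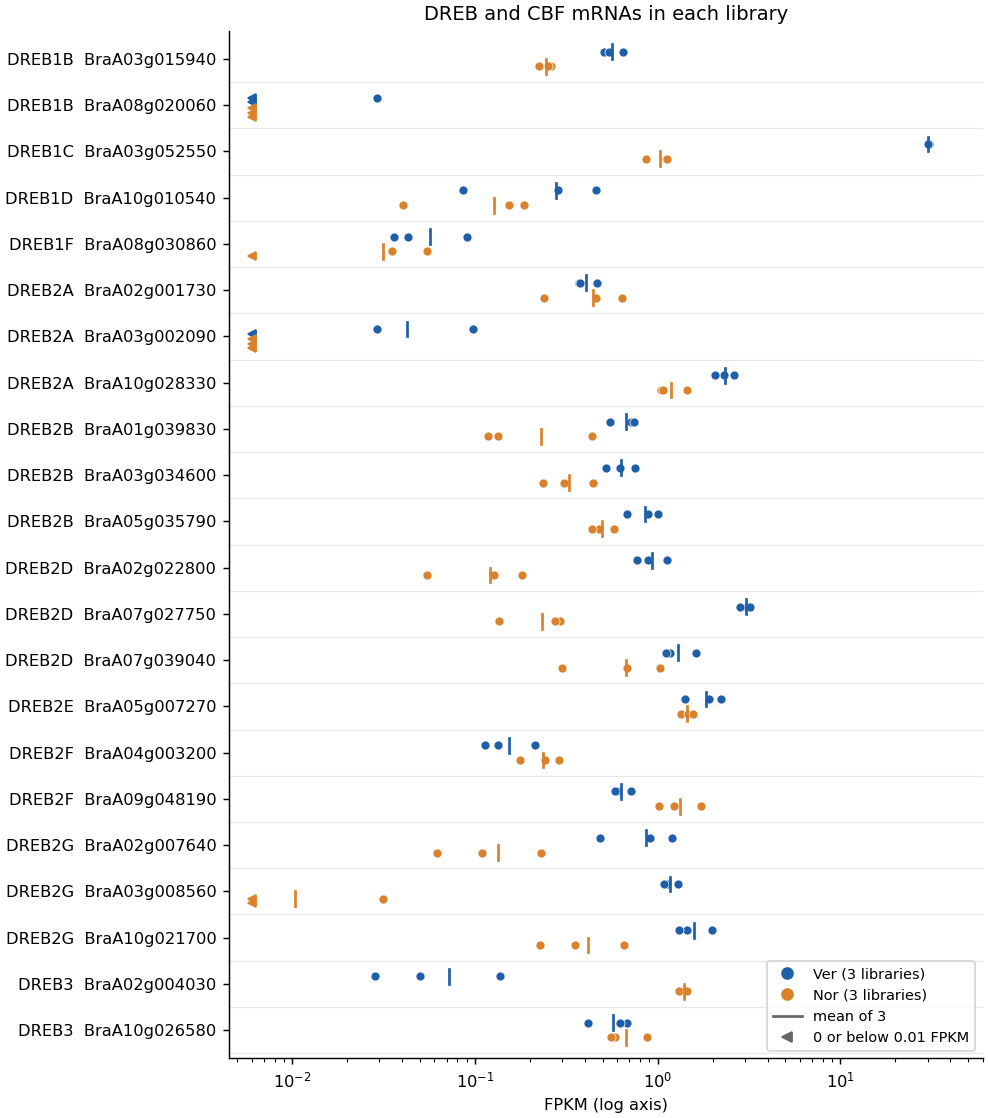
FPKM (log axis) of each of the 22 DREB and CBF mRNAs in each library, with the 3 Ver libraries drawn above the 3 Nor libraries in each row, a bar at the mean of 3, and a triangle at the left edge for a library at 0 or below 0.01 FPKM. DREB1C stands at about 30 FPKM in Ver, far to the right of every other value, and DREB3 BraA02g004030 has its Ver libraries far to the left of its Nor libraries.

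DREB1C, BraA03g052550.3C, was the most abundant member in Ver and the one whose rise was measured best. The Arabidopsis gene of this name, CBF2, is 1 of the cold-induced CBF activators. The mRNA has a single exon on the minus strand of chromosome A03, from 27186110 to 27186754 in B. rapa v3.0. Its level was 30.4, 30.4 and 30.2 FPKM in Ver 1, Ver 2 and Ver 3, against 1.11, 1.12 and 0.860 FPKM in Nor 1, Nor 2 and Nor 3. The 3 Ver libraries were nearly equal, with a coefficient of variation of 0.391%, and lay far above the Nor libraries, which varied by 14.4%. The log2 fold change was 4.87 ± 0.14 (SE, n = 3 per group), or 29.2-fold, with an edgeR adjusted p of 2.65e-05. In Ver its mean exceeded that of 94.4% of reference mRNAs and ranked 5 among the 206 mRNAs annotated as DREB, CBF or ethylene-responsive transcription factors. In Nor it exceeded 51.1% and ranked 71.

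The other DREB1/CBF mRNAs stayed below 1 FPKM in every library. DREB1B BraA03g015940.3C (A03, 7327260 to 7327904, plus strand, 2 exons) carries the name of Arabidopsis CBF1, another cold-induced activator. It was measured at 0.507, 0.541 and 0.646 FPKM (31, 34 and 42 counts) in Ver, against 0.261, 0.250 and 0.225 FPKM (18, 14 and 15 counts) in Nor. The groups did not overlap, and the rise of 1.16 ± 0.27 on the log2 scale passed the test with an edgeR adjusted p of 0.0285. That call did not survive leaving out any 1 of the 6 libraries, where the adjusted p was 0.075 to 0.106 and the log2 fold change 1.06 to 1.23. Its gene lies 8871 bp from BraA03g015950.3C, an FLC gene, the floral repressor known from vernalization.

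DREB1D BraA10g010540.3C, named after Arabidopsis CBF4, a factor known from drought and abscisic acid, had 0.457, 0.0857 and 0.286 FPKM in Ver, against 0.0404, 0.186 and 0.154 FPKM in Nor. The groups overlapped, and the log2 difference of 1.06 ± 0.80 did not pass the test (edgeR adjusted p 0.407). The second DREB1B, BraA08g020060.3C, had 3 counts in Ver 3 and 0 in the other 5 libraries, and DREB1F BraA08g030860.3C had 3 to 8 counts in Ver and 1 to 5 in Nor. Neither was deep enough to test.

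**Figure D3:**
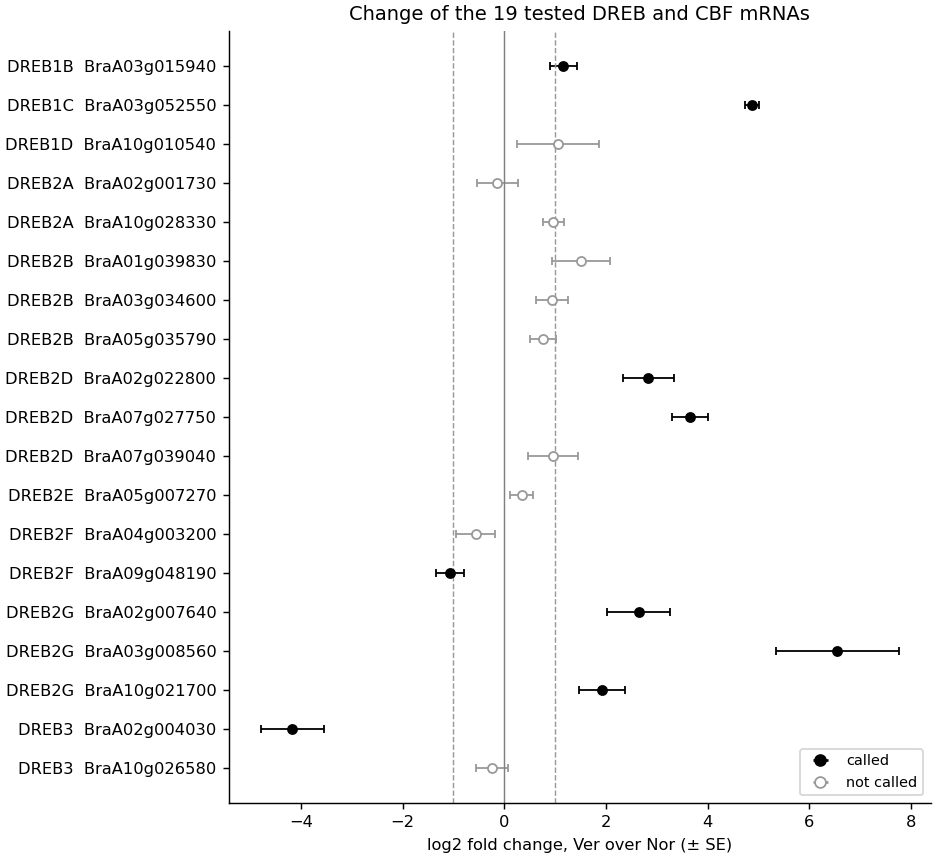
Log2 fold change of Ver over Nor with its standard error for the 19 tested DREB and CBF mRNAs, in which filled points rose or fell by the rule, open points did not, and dashed lines mark the fold threshold of 1. DREB1C has the narrowest error bar at 4.87, DREB2G BraA03g008560 the widest at 6.54, and DREB3 BraA02g004030 is alone at the left at -4.17.

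Of the 15 DREB2 mRNAs, 14 could be tested, 5 rose and 1 fell. The risen ones were 2 of 3 DREB2D and 3 of 3 DREB2G mRNAs, whereas 0 of the 5 tested DREB2A and DREB2B mRNAs passed. At an unadjusted edgeR p of at most 0.05 and with no fold threshold, 4 of those 5 were higher. So were 5462 of all 26531 tested reference mRNAs. DESeq2 called 1 of the 5 higher, DREB2B BraA01g039830.3C, and 2363 of all tested reference mRNAs.

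DREB2A is the best studied Arabidopsis DREB2 factor and acts in drought and heat, whereas DREB2D, DREB2E, DREB2F and DREB2G are less studied relatives. Its most abundant copy, BraA10g028330.3C (A10, 18357899 to 18358891), had the highest mean level of all DREB2 mRNAs over the 6 libraries. It was measured at 2.62, 2.31 and 2.05 FPKM in Ver, against 1.45, 1.04 and 1.07 FPKM in Nor. All Ver libraries lay above all Nor libraries. The log2 fold change of 0.96 ± 0.21 had an edgeR adjusted p of 0.0233 but was just under the fold threshold of 1. The copy on A02, BraA02g001730.3C, had 0.372 to 0.463 FPKM in Ver and 0.239 to 0.634 FPKM in Nor, and its log2 fold change of -0.14 ± 0.41 did not pass the test. The sign of that value changed to 0.22 without Nor 1. The copy on A03, BraA03g002090.3C, had 0, 4 and 14 counts in Ver and 0 in all Nor libraries.

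The 3 DREB2B mRNAs, named after the closest Arabidopsis relative of DREB2A, were each higher in all Ver libraries than in any Nor library, and none passed the adjusted test. The log2 fold changes were 1.51 ± 0.57 for BraA01g039830.3C, 0.94 ± 0.32 for BraA03g034600.3C and 0.77 ± 0.25 for BraA05g035790.3C, with edgeR adjusted p-values of 0.117, 0.0912 and 0.0822. For BraA01g039830.3C, Nor 3 stood apart from the other Nor libraries with 0.438 FPKM, against 0.118 and 0.134 FPKM. Without that library the log2 fold change was 2.34 and the adjusted p 0.0145.

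DREB2D was the kind with the second most abundant member in Ver. BraA07g027750.3C (A07, 20889034 to 20889648, minus strand) had 3.09, 2.82 and 3.20 FPKM in Ver, against 0.291, 0.135 and 0.274 FPKM in Nor. The groups were far apart. The log2 fold change was 3.65 ± 0.36, or 12.6-fold, with an edgeR adjusted p of 0.00155. BraA02g022800.3C (A02, 13341976 to 13342572) had 0.768, 0.881 and 1.13 FPKM in Ver, against 0.127, 0.0546 and 0.182 FPKM in Nor. It too rose without overlap, by 2.83 ± 0.50 (edgeR adjusted p 0.012), although without Nor 1 the adjusted p was 0.051. The third copy, BraA07g039040.3C, had 1.10 to 1.62 FPKM in Ver and 0.301 to 1.03 FPKM in Nor, and its log2 fold change of 0.96 ± 0.49 did not pass the test (edgeR adjusted p 0.226). BraA07g027750.3C was the highest of the 3 in every Ver library, and BraA07g039040.3C the highest in every Nor library.

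All 3 DREB2G mRNAs rose. The copy on A03, BraA03g008560.3C (3673769 to 3674644, minus strand), had 127, 148 and 129 counts in Ver 1, Ver 2 and Ver 3, against 4, 0 and 0 counts in Nor 1, Nor 2 and Nor 3. In FPKM this was 1.13, 1.29 and 1.08 in Ver, against 0.0312, 0 and 0 in Nor. With each Nor library set to at least 3 counts, the Ver mean was 40.9 times the Nor mean. The fitted log2 fold change of 6.54 ± 1.21 (edgeR adjusted p 0.0138) depends on how values of 0 are treated and is no bound.

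The other copies were detected in both groups. BraA10g021700.3C (A10, 15472418 to 15473338) had 1.45, 1.99 and 1.30 FPKM in Ver, against 0.354, 0.658 and 0.228 FPKM in Nor. BraA02g007640.3C (A02, 3595608 to 3596967, 2 exons) had 1.20, 0.909 and 0.485 FPKM in Ver, against 0.109, 0.0616 and 0.229 FPKM in Nor. In both, the groups did not overlap. The log2 fold changes were 1.92 ± 0.45 and 2.64 ± 0.62, with edgeR adjusted p-values of 0.0298 and 0.0306. Neither call was stable to leaving out a library, which gave adjusted p-values of 0.0178 to 0.0997 for BraA10g021700.3C (lost without Nor 1, Nor 3 or any Ver library) and 0.0307 to 0.104 for BraA02g007640.3C (lost without Nor 1, Nor 2, Ver 1 or Ver 2).

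DREB2F BraA09g048190.3C (A09, 36302736 to 36303548) was the DREB2 mRNA that fell. Its level was 0.713, 0.599 and 0.587 FPKM in Ver, against 1.73, 1.01 and 1.22 FPKM in Nor. The groups did not overlap, and the log2 fold change of -1.06 ± 0.28 had an edgeR adjusted p of 0.042. The call was lost without Nor 1, without Nor 3 and without any Ver library, with adjusted p-values of up to 0.121. The other copy, BraA04g003200.3C, had 0.113 to 0.214 FPKM in Ver and 0.175 to 0.287 FPKM in Nor, and its log2 fold change of -0.57 ± 0.38 did not pass. A long assembled transcript of 9 exons spans this gene on the opposite strand. DREB2E BraA05g007270.3C, the most abundant member in Nor, had 1.40 to 2.23 FPKM in Ver and 1.34 to 1.56 FPKM in Nor, with a log2 fold change of 0.34 ± 0.23 that did not pass the test.

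The fall of DREB3 BraA02g004030.3C was the largest among the members. The mRNA has a single exon on the minus strand of A02, from 1971924 to 1972628. It had 13, 3 and 5 counts in Ver 1, Ver 2 and Ver 3, against 136, 108 and 142 counts in Nor 1, Nor 2 and Nor 3. It ranked 19 of the 22 mRNAs in Ver, with 0.138, 0.0282 and 0.0502 FPKM, and 2 in Nor, with 1.39, 1.32 and 1.45 FPKM. The log2 fold change was -4.17 ± 0.62, with 18.0 times as much in Nor and an edgeR adjusted p of 0.00643. The other DREB3, BraA10g026580.3C, had 0.414 to 0.683 FPKM in Ver and 0.552 to 0.873 FPKM in Nor. Its groups overlapped, and its log2 fold change of -0.24 ± 0.32 did not pass.

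Of the 9 calls, 3 were kept in every setting tried in which the mRNA was tested, those of DREB1C, DREB2D BraA07g027750.3C and DREB3 BraA02g004030.3C. The total of 9 became 5 without Nor 1, without Ver 1 or without Ver 2, and 7 without Nor 2, Nor 3 or Ver 3. Not all of these were among the 9: only 4 of the 5 were without Nor 1, and 6 of the 7 without Nor 3 or without Ver 3.

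Copies of the same kind were also compared with each other. B. rapa carries up to 3 copies of many genes that are single in Arabidopsis, and the 22 mRNAs hold 12 pairs of 1 kind that were both tested. The log2 ratio of the copies was taken from normalised counts plus 1. With 3 libraries against 3, the smallest p that an exact two-sided permutation test can give is 0.1, which was 0.2 after adjustment over the 12 pairs, so that no pair could pass and the ratios are given as values. The ratio of BraA02g004030.3C to BraA10g026580.3C was -2.97 ± 0.67 in Ver and 1.02 ± 0.29 in Nor (log2, SD, n = 3), and the order of the copies was reversed in all libraries. For the DREB2D copies BraA07g027750.3C and BraA07g039040.3C the ratio was 1.22 ± 0.30 in Ver and -1.36 ± 1.34 in Nor. For the DREB2A copies BraA02g001730.3C and BraA10g028330.3C it was -2.60 ± 0.10 in Ver and -1.59 ± 0.54 in Nor, with the A10 copy ahead in both groups. Near-identical stretches of such copies can share reads, and how the authors' counting divided them is not given in the sources used here.

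The members share features that the choice did not use. Of the 22, 20 have a single exon (90.9%), as do 23.0% of all reference mRNAs and 74.5% of 184 mRNAs annotated as ethylene-responsive transcription factors. Each of the 22 is the only transcript of its gene in the table, so that no counts were divided among isoforms, whereas 60.7% of all reference mRNAs are. The transcripts are 474 to 1155 bp long with a median of 762 bp, against 1035 bp for all. They are spread over 9 of 10 chromosomes, with 5 on A03, 4 each on A02 and A10 and 0 on A06, and the closest 2 members are 723775 bp apart. Some copies of DREB2A, DREB2D, DREB2F and DREB2G lie beside like-named neighbours within 15 kb, whereas no such neighbour was found for the copies of DREB1B, DREB2B and DREB3. A WALLS ARE THIN 1 gene lies 1031 to 1652 bp from each of the 3 DREB2D genes, and a laccase-12 gene lies beside the DREB2A genes on A02 and A10. The authors' gene ontology names response to cold for 3 of the 22, DREB1C and both DREB1B, and response to water deprivation for 10. It names heat acclimation for 6, which are the DREB2A and DREB2B genes. Of 976 circular RNAs in the deposited data, 0 had a member as host gene.

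CBF regulators were picked by gene and family names known from Arabidopsis, so the list can hold relatives that do not act on CBF genes. It included 45 mRNAs, of which 37 were tested. Of these, 5 rose (13.5%) and 0 fell, where 6.75% and 7.7% of all tested reference mRNAs did so, and the median log2 fold change was 0.37. At an unadjusted edgeR p of at most 0.05 and without a fold threshold, 9 were higher and 1 was lower. Of all 26531 tested reference mRNAs, 5462 were higher and 6004 lower by that measure. DESeq2 called 8 regulators higher and 1 lower, and 2363 and 2596 of all tested reference mRNAs. Of the 5, 3 were clock repressors of the kind PRR5, PRR7 and PRR9, of which 4 were tested. The activators ICE1 and ICE2 (0 of 4) and the calmodulin-binding CAMTA factors (0 of 7) held no call with edgeR by transcript. By its unadjusted p, 0 ICE and 1 CAMTA mRNA were higher, and DESeq2 called 1 of each higher. The CAMTA mRNA with that unadjusted p, BraA02g017580.3C, had 1, 1197 and 420 counts in Ver, against 9, 19 and 2 in Nor. Its groups overlapped. It is 1 of 3 transcripts of its gene, and the gene sum differed by 0.14 on the log2 scale (edgeR adjusted p 0.306). The ICE1 mRNA BraA09g002930.3C is the only transcript of its gene, so that a gene sum adds no counts to it. Its log2 fold change was 2.44 in the edgeR fit by transcript (adjusted p 0.182). In the edgeR fit on gene sums it was 2.45 and was called (adjusted p 0.0334). APRR5 BraA02g042140.3C had 4.98, 5.03 and 5.09 FPKM in Ver, against 1.11, 1.68 and 1.30 FPKM in Nor, a log2 fold change of 1.88 ± 0.17 (edgeR adjusted p 0.00124). APRR9 BraA05g001070.3C had 2.61, 2.83 and 3.47 FPKM in Ver, against 0.445, 0.407 and 0.154 FPKM in Nor, a log2 fold change of 3.13 ± 0.45 (edgeR adjusted p 0.006). Both are components of the Arabidopsis circadian clock that repress CBF genes.

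The third, APRR7 BraA10g032970.3C, was listed at 434 to 634 counts in Ver and 0 in all Nor libraries, at least 185-fold higher against a floor of 3 counts per library. It is 1 of 3 transcripts of its gene, and the counts summed over the gene differed by 0.85 on the log2 scale. The others that rose were EIL5 BraA06g028560.3C, of the EIN3 family of ethylene factors, by 3.46 ± 0.51, and PIF6 BraA09g051610.3C, a phytochrome-interacting factor, by 1.18 ± 0.23. Within the EIN3 family, EIN3 itself represses CBF genes in Arabidopsis. The EIN3 mRNA BraA05g026400.3C had a log2 fold change of 0.30, below the fold threshold. Of the 9 tested mRNAs of that family, 4 had log2 fold changes above 0 and 5 below, and only EIL5 passed. The shares of all tested mRNAs given above are by transcript, and no such share is given here for gene sums. Summed over the transcripts of each gene, 13 mRNAs of this list rose and 1 fell among 42 tested. Those that rose included both genes of LHY, a clock factor that activates CBF genes in Arabidopsis, by 3.16 for BraA10g000820.3C (edgeR adjusted p 2.69e-09) and 2.32 for BraA08g035740.3C (edgeR adjusted p 2.45e-07). By transcript, BraA10g000820.3C had a log2 fold change of -0.42 that did not pass, and the other could not be tested.

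**Figure D4:**
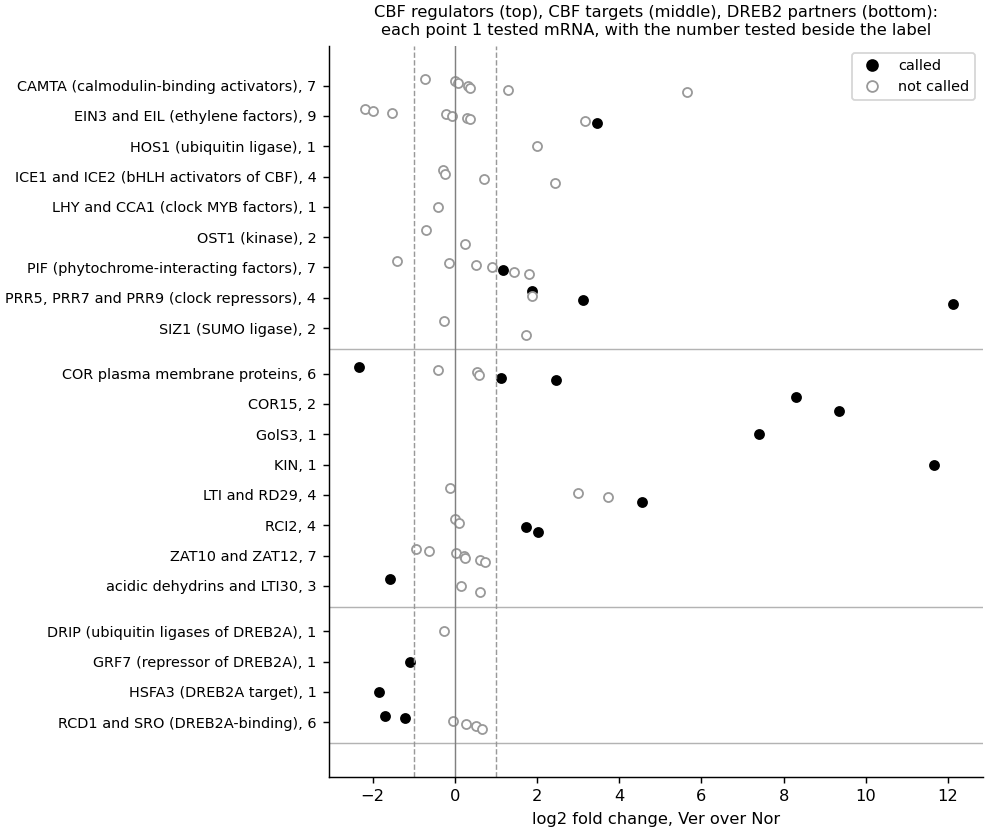
Log2 fold change of Ver over Nor for each tested mRNA of the CBF regulators (top rows), CBF targets (middle rows) and DREB2 partners (bottom rows), with filled points for mRNAs that rose or fell by the rule and dashed lines at the fold threshold of 1. The points for PRR7 and KIN at the far right are fitted against 0 counts in Nor and are no bounds, and in the DREB2 partners all 4 filled points lie left of 0.

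CBF targets were picked by gene and family names known from Arabidopsis, so the list can hold mRNAs that are not CBF targets. It included 33 mRNAs, of which 28 were tested. Of these, 9 rose (32.1%), 2 fell (7.14%) and 17 did not pass, where 6.75% of all tested reference mRNAs rose and 7.7% fell, and the median log2 fold change was 0.60. COR15B BraA03g022330.3C, a chloroplast protein that protects membranes in freezing, had 183, 201 and 195 FPKM in Ver, against 0.0932, 0.298 and 0.467 FPKM in Nor. Galactinol synthase 3 BraA09g062410.3C, which makes the first precursor of raffinose sugars, had 59.8, 62.0 and 64.2 FPKM in Ver, against 0.622, 0 and 0.453 FPKM in Nor. Both were among the most strongly raised mRNAs of the list, by 9.36 ± 0.62 and 7.40 ± 1.42 on the log2 scale (edgeR adjusted p 0.000408 and 0.0155). The second COR15B mRNA, BraA03g022340.3C, belongs to the same assembled gene as the first, so that the counts of the 2 are not independent. With counts summed over the transcripts of each gene, 13 mRNAs of the list rose and 2 fell among 30 tested. The 2 COR15B mRNAs share 1 such sum, and the share of all genes called in that fit is not given here.

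Among the membrane proteins of the list, COR413-PM1 BraA07g004890.3C had 423, 403 and 382 FPKM in Ver, against 69.9, 71.7 and 77.5 FPKM in Nor. Its log2 fold change was 2.46 ± 0.06 (edgeR adjusted p 1.64e-05). The low temperature-induced protein lt101.2, BraA03g020550.3C, had 13.4, 12.1 and 12.4 FPKM in Ver, against 0.623, 0.352 and 0.528 FPKM in Nor, a log2 fold change of 4.55 ± 0.30. KIN2 BraA02g006290.3C was listed at 344 to 446 counts in Ver and 0 in all Nor libraries, at least 136-fold higher against the floor of 3 counts per library. Not all mRNAs of the list rose. The 2 that fell, named after their values were seen, were COR413-PM4 BraA08g021310.3C, with 18.1 to 21.3 FPKM in Ver and 95.9 to 99.4 FPKM in Nor (log2 fold change -2.34 ± 0.07), and the dehydrin ERD14 BraA07g027520.3C (-1.58 ± 0.09). Of 7 tested mRNAs for the zinc finger factors ZAT10 and ZAT12, 0 passed with edgeR or DESeq2. ZAT10 BraA08g024730.3C, named after its values were seen, was lower in Ver without overlap. Its log2 fold change of -0.94 ± 0.22 had an edgeR adjusted p of 0.0308 but was just under the fold threshold of 1 in size.

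Among mRNAs named for genes that act on, bind or follow DREB2A in Arabidopsis, 4 fell by transcript. The same 4 fell with counts summed over each gene, where 2 others were called higher. Of 15 mRNAs, 9 were tested, 0 rose and 4 fell, where 6.75% and 7.7% of all tested reference mRNAs did so, and the median log2 fold change was -0.26. The 9 include BraA05g026370.3C, of a cell differentiation protein that also carries the name RCD1. Without the mRNAs of that protein, 8 were tested and the same 4 were called. The count of higher ones was 0 with DESeq2 and by the unadjusted p of edgeR alone. With counts summed over the transcripts of each gene, edgeR called 2 higher and 4 lower among 11 tested. The share of all genes called in that fit is not given here. The 2 higher ones, named after their values were seen, were SRO2 BraA07g014110.3C (1.66 on the log2 scale) and the RCD1 mRNA BraA08g008880.3C (1.42). GRF7 BraA02g014450.3C, a growth-regulating factor that represses DREB2A in unstressed Arabidopsis, had 28.6, 29.7 and 28.6 FPKM in Ver, against 62.8, 60.6 and 60.6 FPKM in Nor. The groups were tight and apart, with a log2 fold change of -1.09 ± 0.04 (edgeR adjusted p 4.01e-05). HSFA3 BraA10g032500.3C, a heat stress factor that DREB2A activates, had 0.352, 0.422 and 0.437 FPKM in Ver, against 1.55, 1.64 and 1.18 FPKM in Nor, a log2 fold change of -1.84 ± 0.22. The other 2 that fell are both annotated as SRO5, of the family of RCD1, a protein that binds DREB2A. They had log2 fold changes of -1.69 ± 0.11 (BraA02g043750.3C) and -1.22 ± 0.15 (BraA06g026140.3C). The 1 DRIP ubiquitin ligase, of a kind that marks DREB2A for degradation, had a log2 fold change of -0.26 and did not pass.

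Among the 184 ethylene-responsive transcription factors, the wider family around DREB and CBF, 147 were tested, 17 rose and 18 fell, with a median log2 fold change of -0.17. That is 11.6% and 12.2% of those tested. Of the tested DREB and CBF mRNAs, 36.8% rose and 10.5% fell.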

How the data were processed

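The table of linear transcripts deposited by the authors holds estimated counts and FPKM values, both by library. The strand-specific paired-end reads, depleted of ribosomal RNA, had been mapped with TopHat2 and Bowtie2 (genome B. rapa v3.0) and quantified with StringTie and Ballgown (versions, and how the counts were derived, are not given in the sources used here). The estimated counts are whole numbers as deposited by the authors, and an FPKM of 0, which the authors wrote as 0.0001, was read as 0. The deposited counts of back-splice junction reads per circular RNA were used only to look up host genes.

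The 6 libraries entered 1 quasi-likelihood fit of edgeR 4.0.16 (R 4.3.3) on all linear transcripts, after filterByExpr and with TMM factors, and p-values were adjusted over the 49351 tested. The common dispersion was 0.363. The standard error was derived from the fold change and its F statistic, as the size of the log2 value over the root of F. Exact permutation tests used SciPy 1.17.1, tables pandas 2.3.3 and NumPy 2.4.6 under Python 3.11.15, and figures matplotlib 3.10.9. The edgeR script was tested on simulated data.

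The 22 mRNAs follow the annotation rule given in the report. They and the lists of regulators, targets, partners, ethylene-responsive factors and seed markers, which were picked by words in the descriptions, were chosen with earlier results of these data known. Values are given by library for every member that rose or fell, the member with the highest mean FPKM in each subgroup and each DREB1/CBF mRNA with a mean of at least 10 counts. From each other list, the rule names the 4 mRNAs with the largest change among those called, with groups that do not overlap and a mean of at least 10 counts in the lower group, and others are named after their values were seen. Alternatives were DESeq2 1.42.0, limma 3.58.1 on FPKM, other scalings, filters and thresholds, gene sums, a block for the replicate number and each library left out. The depth limits what can be said of mRNAs with few counts. No genome sequence was used here, so no sequences are shown.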

Additional observations from a re-analysis of the deposited data

How the results depend on the processing

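The 19 tested DREB and CBF mRNAs were refitted under 18 alternatives, which gave 329 values. Of these, 287 kept their direction and their side of the threshold, 34 lost the call, 7 gained one and 1 changed sign (DREB2A BraA02g001730.3C, 0.22 without Nor replicate 1, with values of -0.44 to 0.22 over the libraries left out in turn). The count of 9 DREB and CBF calls became 4 with limma on log2(FPKM + 1), which shrinks the change of low mRNAs, 4 with a mean CPM of at least 1, where only 6 members could be tested, and 5 to 7 with 1 library left out. It was 10 with DESeq2, 9 with RLE factors and 9 without composition factors, and these scalings moved the median of all transcripts by less than 0.1. Of the CBF regulators, 9 were called with DESeq2 and 14 with counts summed over the gene, in place of 5, and 4 to 7 with 1 library left out. CBF target calls were 11, 15 (13 higher and 2 lower) with counts summed over the gene, and 10 to 13 with 1 library left out. DREB2 partner calls were 4, 2 with limma on log2(FPKM + 1) and 6, of which 2 were higher, with counts summed over the gene. For none of these lists is the share of all genes called with gene sums given here. Leaving out both mRNAs of a cell differentiation protein that also carries the name RCD1, an alternative chosen after seeing the data, changed none of the 4.

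Same-numbered Ver and Nor libraries did not deviate together over the 49351 transcripts (correlations of 0.0062, 0.0092 and 0.0018). A correlation over all transcripts cannot show whether single mRNAs were paired. Whether same-numbered libraries came from the same dish is not stated by the authors. With the replicate block, 5 DREB and CBF mRNAs, 3 CBF regulators, 9 CBF targets and 4 DREB2 partners were called, and DREB2G BraA03g008560.3C was among the calls lost, with an edgeR adjusted p of 0.0681. A count is the authors' estimate, from which the counting error of sequenced fragments cannot be read, and mRNAs under about 10 counts could not be compared at this depth.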

Other observations

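A further mRNA on A08, BraA08g020090.3C (15405087 to 15405863), is annotated as a partial CBF-like protein and lies 14451 bp from DREB1B BraA08g020060.3C. The rule did not take it, since its description names neither DREB nor the C-repeat, and it was picked out after its values were seen. It had 0.277, 0.102 and 0.192 FPKM (28, 11 and 21 counts) in Ver, against 0 in all 3 Nor libraries. Against a floor of 3 counts per library it was at least 6.66-fold higher in Ver, with an edgeR adjusted p of 0.0162.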
